A study of Homo sapiens with 2 samples.

Results

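The genes described here are 55 mitotic genes, coding for cyclins and mitotic kinases, kinesin motors, kinetochore and checkpoint proteins, cytokinesis factors and proteins of the spindle and of condensed chromosomes. They were chosen by name, from a list of mitosis genes, among the 19775 genes that the array annotation pairs with a probe set of their own. The annotation gave them 104 probe sets, the groups of short probes that read transcripts on an Affymetrix array, and every gene had at least 1. Of these probe sets, 51 carry a suffix of those that can match several transcripts. The cells were the human breast cancer line MDA-MB 231, which is highly invasive and lacks the estrogen receptor. Of 2 stable transfectants, one carried S100A7 cloned into pIRES2-EGFP and the other pIRES2-EGFP without an insert, so both lines share the vector and its selection. Total RNA of each was measured on 1 array, and the question of the series is which genes S100A7, a small calcium-binding protein, regulates. Whether each stable line was a single clone or a pool is not given in the sources used here. How dense the cultures were at harvest is stated for the vector cells alone, and the S100A7 label instead holds a line on embryos that cannot apply to a cell line.

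Dividing cells make most of these transcripts late in the cycle, and the proteins act within a short time. CDK1 bound to cyclins A and B drives the cell into mitosis, with Polo and Aurora kinases beside it. Kinesins build and shorten the microtubule spindle, kinetochores tie each chromosome to it, and the spindle checkpoint holds back the anaphase-promoting complex until all chromosomes are attached. The chromosomal passenger complex, centralspindlin and anillin then place and close the cleavage furrow. Many of these genes share a promoter layout of CCAAT boxes and a cell cycle homology region (CHR), through which the DREAM complex holds them off in resting cells and MYBL2 and FOXM1 switch them on in dividing ones.

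Of the 55 genes, 47 had a promoter window in the RefSeq table of build GRCh38.p14, which was searched over the 250 bases before each listed transcription start. The letters searched on both strands were the CCAAT box and 3 common CHR forms: TTTGAA, then TTTAAA, then TTCGAA, of which the last 2 read the same on either strand. TTTGAA stood in at least 1 window of 27 of the 47 genes (57.4%), against 16.1% of the 27305 genes of the table and 12.1% of 10262 other measured genes. CCAAT stood in 38 of the 47 (80.9%), against 37.0% and 41.4%. TTTAAA was found for 13 (27.7%), against 13.5% of the table and 10.2% of the other measured genes. TTCGAA was found for 2 (4.26%), against 409 of the 27305 genes of the table and 1.93% of the other measured genes. Both TTTGAA and CCAAT stood in the same window of 22 genes (46.8%), against 5.79% of the table. A gene can have several windows, which raises its chance of a match. The 100 bases before the start are printed for some genes, as examples of where the letters lie. HMMR, KIF11, KIF20A, CDC20 and NDC80 were higher in S100A7 cells, and PRC1 and SPC25 lower. CCNB2 was close to equal, with a log2 ratio of S100A7 over vector of -0.08. These genes were picked after the values were seen and do not stand for all. NEK2, CCNA2, KIF20B and NUF2, among the highest genes, had none of the 3 searched CHR forms in the 250 bases. Other CHR forms were not searched. The stretches run 5′ to 3′ along the gene, and carry matches to the searched letters in capitals.
HMMR, chr5:163460532-163460631, plus strand: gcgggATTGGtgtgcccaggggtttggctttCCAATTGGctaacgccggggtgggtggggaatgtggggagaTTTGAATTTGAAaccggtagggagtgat
KIF11, chr10:92593030-92593129, plus strand: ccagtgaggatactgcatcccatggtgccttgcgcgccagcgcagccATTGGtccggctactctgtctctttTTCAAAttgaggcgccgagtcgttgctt
KIF20A, chr5:138179012-138179111, plus strand: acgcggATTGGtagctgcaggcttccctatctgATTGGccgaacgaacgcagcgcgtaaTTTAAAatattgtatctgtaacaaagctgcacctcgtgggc
CDC20, chr1:43358881-43358980, plus strand: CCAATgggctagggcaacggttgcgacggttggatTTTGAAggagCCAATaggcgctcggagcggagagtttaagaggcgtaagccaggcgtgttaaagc
NDC80, chr18:2571457-2571556, plus strand: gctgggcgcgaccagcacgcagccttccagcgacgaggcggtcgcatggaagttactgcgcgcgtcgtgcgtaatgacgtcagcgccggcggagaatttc
CCNB2, chr15:59105046-59105145, plus strand: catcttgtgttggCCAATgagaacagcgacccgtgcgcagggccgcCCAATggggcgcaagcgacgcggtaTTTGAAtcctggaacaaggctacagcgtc
PRC1, chr15:90994536-90994635, minus strand: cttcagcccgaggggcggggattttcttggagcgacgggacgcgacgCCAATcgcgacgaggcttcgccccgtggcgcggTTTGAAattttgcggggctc
SPC25, chr2:168890431-168890530, minus strand: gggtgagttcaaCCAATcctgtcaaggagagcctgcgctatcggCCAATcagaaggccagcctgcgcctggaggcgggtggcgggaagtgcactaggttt

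Counting from the start, the TTTGAA of CCNB2 begins 29 bases upstream with CCAAT at 54 and 87, and that of PRC1 begins 20 bases upstream with CCAAT at 53. KIF11 has the letters on the other strand (TTCAAA at 28 and ATTGG at 53), and in HMMR 2 copies of TTTGAA follow each other at 28 and 22, while 2 of its 3 CCAAT matches overlap. NDC80 held none of the searched letters in these 100 bases, and SPC25 held CCAAT there but none of the 3 CHR forms. Between the arrays, the median log2 ratio was 0.21 for the 27 genes with TTTGAA (18 above 0) and 0.26 for the 20 without (16 above 0). For CCAAT it was 0.28 over 38 genes with it (29 above 0) and 0.18 over 9 without (5 above 0). For any of the 3 CHR forms it was 0.17 over 36 genes with one (25 above 0) and 0.50 over 11 without (9 above 0). For TTTGAA and CCAAT in the same window it was 0.31 over 22 genes with both and 0.18 over the other 25 (17 above 0 in each). The side with the higher median thus changed with the letters chosen.

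Intensities are MAS5 signals on a linear scale, and log2 ratios divide S100A7 by vector, so that values above 0 are higher in S100A7 cells. Each array's 50th percentile, 71.0 for vector and 69.0 for S100A7, served as a floor. Probe sets below it on both arrays were left out as not measured, a lone value below it was set to it, and a gene was read by its brightest measured probe set. The S100A7 gene itself, the check of the labels, read 11.99 (under the floor) with the empty vector and 13232 with the insert, a difference of at least 186-fold. With 1 array per group there was no test and no spread between cultures. The nearest yardstick is how far probe sets of 1 gene lie apart in log2 ratio, a pooled standard deviation of 0.36 over 6465 genes and 0.25 over the 26 mitotic genes with at least 2, which shows technical spread only. The line's markers VIM (38087 in vector, 35575 in S100A7), CD44 and LGALS1 were well above the floor, and ESR1, PGR and CDH1 were below it on both arrays. SPARC was near the floor (72.7 and 114), and EPCAM, listed as a low marker, read 544 and 513. Leukocyte markers were below the floor for 5 of 6 genes, CD79A reading 315 and 202, and of 7 fibroblast and endothelial markers 4 reached it, none above 169 on either array. The 3' over 5' ratio was 1.09 in vector and 1.07 in S100A7 cells for ACTB, and 0.718 and 0.801 for GAPDH.

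Most mitotic genes were modestly higher in the S100A7 array. Of the 55 genes, 40 had a log2 ratio above 0 (72.7%), against 45.8% of all 12688 measured genes, and their median was 0.24 against -0.04. At least 1.5-fold higher were 10 of them (18.2%, background 8.12%), namely KIF20B, NEK2, KIF11, CCNA2, KIF20A, NUF2, NDC80, HMMR, ASPM and TTK. At least 1.5-fold lower were 2 (3.64%, background 10.0%), MAD2L1 and SPC25. Not one gene reached 2-fold in either direction, where 1.80% of measured genes were higher and 2.25% lower. Below 0 were 15 of the 55, against a background of 54.2%. The log2 ratios ran from -0.63 (MAD2L1) to 0.93 (KIF20B), and for 31 of the 55 the size of the ratio was below the 0.36 between probe sets of a gene. Of the other 24, 21 were higher (background 17.2%) and 3 lower (background 21.2%) in S100A7 cells.

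**Figure D1:**
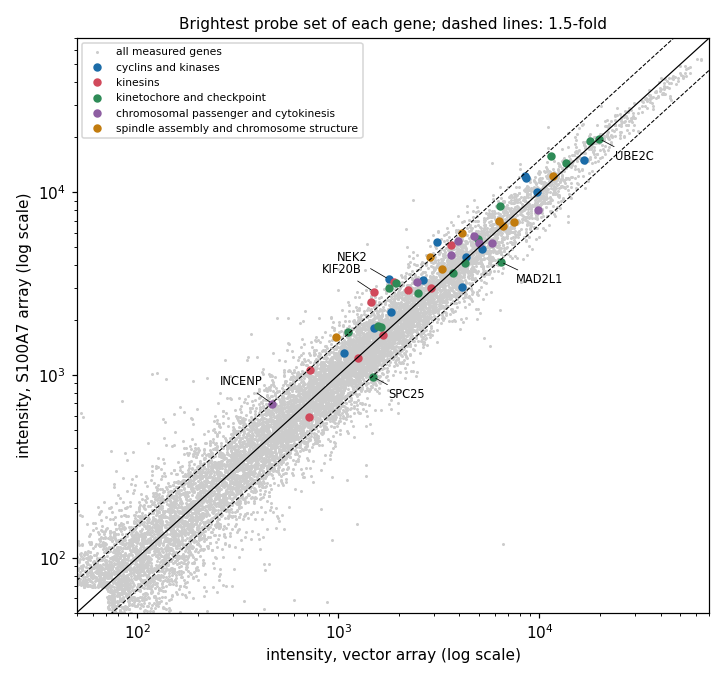
Intensity of the brightest probe set on the S100A7 array against the vector array, both axes logarithmic, for all 12688 measured genes (grey) and the 55 mitotic genes coloured by role; the solid line marks equal intensity and the dashed lines 1.5-fold. The mitotic genes form a narrow band about the line of equal intensity, with 10 on or above the upper dashed line, KIF20B and NEK2 among them, and 2, MAD2L1 and SPC25, below the lower one.

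All 55 genes were above the floor on both arrays by their brightest probe set, so no fold change among them is a bound. Dim genes passed 1.5-fold more often than bright ones, so the counts were also set against the 6828 genes at least as bright as the dimmest of the 55. There the background was 46.0% above 0, 54.0% below 0, 5.55% higher by 1.5-fold or more and 6.49% lower by as much, with a median of -0.03. By probe set, 97 of the 104 were measured, and 94 of these were above the floor on both arrays. Of the 97, 73 were above 0 (75.3%, background 48.5% of 24438 measured probe sets), 24 below 0 (background 51.5%), 21 at least 1.5-fold higher (21.6%, background 9.92%) and 3 at least 1.5-fold lower (3.09%, background 9.71%). Of the 26 genes with 2 or more measured probe sets, 16 had all of them above 0 (background 27.7% of 6465 such genes), 3 had all below 0 (background 29.2%), namely MAD2L1, KIF23 and NUSAP1, and 7 had both signs.

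Among cyclins and their kinases, 10 of 13 genes had a log2 ratio above 0 (background 45.8%) and the median was 0.29. NEK2, a kinase that parts the centrosomes before mitosis, read 1785 with the empty vector and 3339 with S100A7, 1.87-fold higher, and its second probe set followed it (675 and 1097, log2 ratio 0.70). CCNA2, cyclin A2, which serves S phase and the entry into mitosis, read 3106 and 5335 (1.72-fold higher). Its other probe set gave 2619 and 4305, so both pairs of readings set the S100A7 array above the vector array by a like amount. CDK1, the kinase that the mitotic cyclins activate, read 8569 and 11935, and its 4 probe sets ranged from 0.18 to 0.72 on the log2 scale.

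The B-type cyclins did not share the difference seen for cyclin A2. CCNB1 read 9729 in vector and 10057 in S100A7 cells, a log2 ratio of 0.05, with 0.23 at its other probe set. CCNB2 read 5183 and 4909, a log2 ratio of -0.08. CKS2, a small subunit that docks CDK1 onto substrates, read 16633 and 15051 (log2 ratio -0.14). Of the phosphatases that switch CDK1 on, CDC25C had a log2 ratio of 0.30, with 0.66 at a second probe set, and CDC25B one of 0.03. CDC25A, listed here with the G1/S genes, had -0.09, its 3 probe sets running from -0.30 to 0.14.

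The Aurora kinases were higher to a degree that depended on the probe set. AURKA, which matures centrosomes, read 8477 and 12228 by its brightest probe set (log2 ratio 0.53). A second of similar brightness read 7078 and 7837, a log2 ratio of 0.15, and the dimmest gave 0.10. AURKB, the kinase of the chromosomal passenger complex, read 2629 and 3328 (0.34), with 0.58 from a dimmer probe set. PLK1, which acts from mitotic entry to cytokinesis, had a log2 ratio of 0.27 on 1 probe set. PLK4, the trigger of centriole duplication, had 0.29 on its brightest and 0.65 and 0.70 on the dimmer ones (219.8 and 357 for the latter).

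FOXM1, a transcription factor that activates many genes of this list, went the other way from most of them. It read 4125 with the vector and 3016 with S100A7, 1.37-fold lower (log2 ratio -0.45). That was the lowest value of the group, and it rests on 1 probe set with the suffix _x_at, which can match other transcripts.

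The kinesins had a median of 0.45, with 7 of 10 above 0 (background 45.8%) and 3 at least 1.5-fold higher (background 8.12%). That was the highest median of the role groups by the brightest probe set, but without probe sets of shared-transcript suffix it was 0.40, below those of spindle assembly (0.49) and of cytokinesis genes (0.46). KIF20B, a motor of the late spindle and midbody, read 1497 with the vector and 2861 with S100A7, 1.91-fold higher, which was the largest difference among the 55 genes. This rests on 1 probe set, its 2 others being below the floor on both arrays. KIF11, the motor that pushes spindle poles apart, read 1449 and 2515 (1.74-fold higher). KIF20A, which brings the passenger complex to the central spindle, read 1887 and 3211 (1.70-fold higher). Both were again read by 1 probe set each.

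KIF18A, KIF2C and KIF14 followed with smaller values. KIF18A, which damps the movement of chromosomes at the spindle equator, read 726 and 1072 (log2 ratio 0.56). KIF2C, a microtubule depolymerase at kinetochores, read 3614 and 5120 (0.50), with 0.47 at a second probe set. KIF14, a motor needed for cytokinesis, had log2 ratios of 0.40 and 0.28.

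The remaining kinesins lay near 0 or had probe sets that disagreed. KIF4A, a chromosome-bound motor, had a log2 ratio of 0.06, and KIF15, which can stand in for KIF11, one of -0.01 (1675 and 1665). KIF23, the motor of centralspindlin, read 1258 and 1232, with both probe sets slightly below 0 (-0.03 and -0.07). KIF22, a chromosome-arm motor, had the lowest value, 718 and 590 (-0.28), but its other probe set read 536 and 742 (0.47).

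Kinetochore and checkpoint genes ran from -0.63 to 0.74, with a median of 0.17 and 11 of 16 above 0 (background 45.8%). The NDC80 complex, the rod that grips microtubules, held values from both ends. NUF2 read 1783 with the vector and 2981 with S100A7 (1.67-fold higher), and NDC80 read 1925 and 3186 (1.66-fold higher). SPC25, of the inner end of the same rod, read 1488 and 978 (1.52-fold lower). All 3 were read by a single probe set each without a shared-transcript suffix, so their disagreement could not be checked against other probes. SPC24, the partner of SPC25, is not one of the 55 genes, and its 2 probe sets gave 1.02 and 0.07.

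The spindle checkpoint was also divided. MAD2L1, coding for the MAD2 protein that binds and holds CDC20, was the lowest of all 55 genes. It read 6420 and 4158 (1.54-fold lower), and its other probe sets read 4253 and 3102, and 393 and 254. All 3 pairs were lower in S100A7 cells, with log2 ratios between -0.63 and -0.46. TTK, the MPS1 kinase that starts checkpoint signalling, read 1121 and 1717 (1.53-fold higher).

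BUB3, a scaffold of the checkpoint, read 11472 and 15721 (log2 ratio 0.45), and its 5 measured probe sets ranged from 0.08 to 0.45. CDC20, the activator of the anaphase-promoting complex that the checkpoint sequesters, read 6342 and 8426 (0.41). BUB1B, its partner in the inhibitory complex, read 4251 and 4120 (-0.05). BUB1, a kinase of the outer kinetochore, read 3707 and 3630 (-0.03), while its dimmer probe sets scattered from -0.46 to 0.35. Of the 4 genes of the mitotic checkpoint complex, then, CDC20 and BUB3 had log2 ratios above 0 and MAD2L1 below, while BUB1B was close to equal.

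Centromere and remaining kinetochore genes lay close together above 0. CENPK had a log2 ratio of 0.24, the kinetochore motor CENPE 0.18, the centromeric histone CENPA 0.17, and ZWINT, which links the checkpoint to the kinetochore, 0.08. CENPF, a large protein of the outer kinetochore, read 4943 and 5560 (0.17), and its 2 dimmer probe sets gave 0.49 and 0.81. PTTG1, securin, which restrains the protease that splits sister chromatids, had 0.10 (17844 and 19124). UBE2C, a ubiquitin-conjugating enzyme of the anaphase-promoting complex, read 19816 and 19610 (-0.02).

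Chromosomal passenger and cytokinesis genes had a median of 0.31, with 6 of 8 above 0 (background 45.8%). Of the 8, 0 reached 1.5-fold, against a background of 8.12% higher and 10.0% lower. The median was 0.14 after subtraction of chromosomal neighbours and 0.46 over the 3 genes left without shared-suffix probe sets. INCENP, the scaffold of the passenger complex, read 469 with the vector and 697 with S100A7 (1.49-fold higher), on the border of that threshold. CDCA8, borealin, which sits with it on the centromere, read 3628 and 4542 (log2 ratio 0.32). BIRC5, survivin, the subunit that finds the centromere, read 5031 and 5279 (0.07). Of its 4 probe sets 3 lay between -0.05 and 0.07, and the dimmest, at 269 and 412, gave 0.61. With AURKB, all 4 subunits of the passenger complex were above 0 by their brightest probe set.

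Genes that act at the furrow and midbody varied more in sign. CEP55, which recruits the machinery of the final cut, read 3934 and 5404 (0.46). ECT2, the exchange factor that activates RhoA at the furrow, read 2468 and 3225 (0.39), with -0.04 at its other measured probe set. RACGAP1, the partner of KIF23 in centralspindlin, read 4737 and 5774 (0.29). ANLN, anillin, read 5808 and 5304 (-0.13) by one probe set and 4076 and 4833 (0.25) by the other. PRC1, which bundles the antiparallel microtubules of the midzone, read 9830 and 7971 (1.23-fold lower), the lowest of the group.

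Spindle assembly and chromosome structure genes had a median of 0.18, with 6 of 8 above 0 (background 45.8%). It was 0.34 with the median of all probe sets of each gene, and 0.49 over the 7 genes left without shared-suffix probe sets. HMMR, a hyaluronan receptor that also acts in spindle assembly, read 976 and 1614 (1.65-fold higher), while its other probe set, of similar brightness, read 990 and 1155 (0.22). ASPM, a spindle pole protein, read 2843 and 4431 (1.56-fold higher). Its other 2 probe sets gave 0.65 and 0.91, so that all 3 were past 1.5-fold in the same direction. DLGAP5, which stabilises kinetochore fibres, read 4098 and 5969 (0.54).

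The others of this group were closer to equal. TPX2, the activator of Aurora A on the spindle, read 11735 and 12247 (0.06). NUSAP1, which ties microtubules to chromatin, read 7447 and 6856 (-0.12), and its second probe set was likewise below 0 (-0.08). TOP2A, the topoisomerase that untangles sister chromatids, had 0.14 by its brightest probe set (6315 and 6964), 0.49 by the next and 0.44 by one above the floor only in S100A7 cells. NCAPG, a condensin subunit, had a log2 ratio of 0.21. SMC4, another, read 6589 and 6500.1 (-0.02). A dim probe set of SMC4 with a shared-transcript suffix gave 0.90 (322 and 599).

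Other genes of the mitotic programme, listed by function, were counted in the same way. Of 24 other mitotic genes, all measured, 19 were above 0 (79.2%, background 45.8%) and the median was 0.15. MKI67, the gene of the Ki-67 proliferation antigen, read 3421 and 3915 (0.19), with 4 probe sets from -0.09 to 0.94. CKAP2, a spindle protein, was highest at 2.89-fold (2169 and 6273, 1 probe set), followed by the motor gene KIFC1 (1.65-fold), and KNSTRN (-0.43) and ARHGAP11A (-0.22) were lowest. Of 30 measured other kinetochore and centromere genes among 32 listed, 21 were above 0, 4 were 1.5-fold or more higher and 1 as much lower, with a median of 0.18. SPC24 (2.02-fold) and CENPH (2.01-fold) were highest, CENPO (1.75-fold lower) and CENPN (-0.47) lowest.

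Regulators and stable machinery of mitosis had medians at or below 0. Subunits of the anaphase-promoting complex and its partners had a median of -0.13, 7 of 16 measured genes above 0 and 0 past 1.5-fold, from CDC27 (0.44) and ANAPC16 (0.44) to CDC26 (-0.39) and UBE2S (-0.52). The other condensin and cohesin genes had a median of 0.00, 8 of 16 above 0, with SMC3 (0.70) and the separase gene ESPL1 (0.40) highest and NCAPH2 (-0.63) and NCAPG2 (-0.72) lowest. For the switches of mitotic entry and exit the median was -0.13, 4 of 12 above 0. In this list MASTL, the Greatwall kinase that holds back a mitotic phosphatase, was 2.53-fold higher (424 and 1072, 1 probe set), then BORA at 0.57, and the phosphatase genes PPP1CC (-0.24) and PPP2R1A (-0.30) were lowest.

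Kinesins listed for roles outside mitosis had lower values than the mitotic ones, a difference that could not be tested. Their median was -0.06 over 13 measured genes of 18, and 5 were above 0, against 0.45 and 7 of 10 for the mitotic motors. KIF5B (0.63) and KIF13A (0.40) were highest, KIF16B (-0.55) and KIF7 (-0.68) lowest. Tubulins and stathmin had a median of 0.06 over 11 measured of 12, with TUBB2A (0.58) and TUBB6 (0.52) highest and TUBA1C (-0.25) and TUBA4A (-0.68) lowest.

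Genes of the earlier cell cycle and of its transcriptional control were mixed. Genes of the G1/S transition and DNA replication had a median of 0.00, 14 of 28 measured above 0 and 14 below, from CDT1 (0.69) and CCNE2 (0.62) to CHAF1A (-0.44) and GINS3 (-0.70). Genes of the DREAM, MuvB, E2F and RB proteins had a median of 0.18, 12 of 19 above 0. MYBL2, the activator that joins MuvB at mitotic promoters, was 2.93-fold higher (670 and 1963, 1 probe set), in contrast to FOXM1. RB1 was 2.12-fold higher with both probe sets above 1 on the log2 scale, and E2F6 (-0.45) and LIN37 (-0.63) were lowest. G1 cyclins and CDK inhibitors had a median of 0.03 over 11 measured of 14. CDKN2A was highest (77.6 and 155, near the floor), then CCNG2 (0.46), while CDKN1C, the inhibitor p57, was 2.64-fold lower with its 4 probe sets up to -0.13, and CDK4 was next at -0.29.

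**Figure D2:**
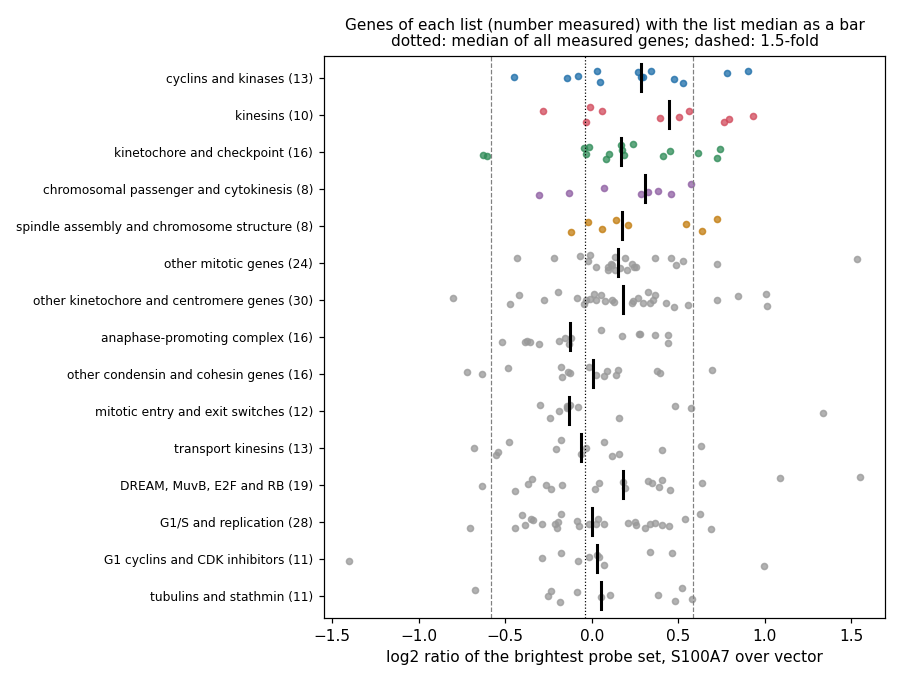
Log2 ratio of each measured gene (points, spread vertically only to separate them) in the 5 role groups (coloured) and 10 other lists (grey), with the list median as a black bar; the dotted line is the median of all measured genes (-0.04) and dashed lines mark 1.5-fold. The medians of the 5 role groups lie between 0.17 and 0.45, and those of the other lists between -0.13 and 0.18.

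On some chromosomes, though not all, the values of the mitotic genes went with those of the chromosome. All 8 genes of the list on chromosome 1 (CDC20, KIF2C, CDCA8, NUF2, KIF14, ASPM, NEK2 and CENPF) had log2 ratios above 0, as had all 6 on chromosome 10 (CDK1, ZWINT, KIF11, KIF20B, CEP55 and BUB3) and all 6 on chromosome 5 (CCNB1, KIF20A, CDC25C, CENPK, PTTG1 and HMMR). All 5 on chromosome 15 (CCNB2, KIF23, BUB1B, NUSAP1 and PRC1) were below 0. The median of all measured genes was 0.10 on chromosome 1 (60.9% above 0), 0.21 on chromosome 10 (70.7%), -0.07 on chromosome 5 (41.3%) and -0.33 on chromosome 15 (19.0%). Beside the high values of NDC80 and TTK, chromosomes 18 and 6 had medians of 0.35 and 0.24. The mitotic genes of chromosome 5 thus differed in sign from the median of their chromosome. So did 4 of 5 on chromosome 4 (median of all measured genes -0.13) and 3 of 4 on chromosome 20 (median -0.15).

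Each mitotic gene was therefore set against up to 40 nearby measured genes on its chromosome. These were the nearest 20 on each side, or fewer on the side of a close chromosome end. The neighbours' median ran from -0.41 (KIF23) to 0.40 (TTK). Where it was above 0, 26 of 27 mitotic genes were above 0, and where it was below 0, 14 of 28 were. Of all measured genes, not split by their neighbours, 45.8% were above 0. Over the 55 genes the Pearson correlation between a gene's log2 ratio and its neighbours' median was 0.59. This is a description across genes that share 2 arrays and, on some chromosomes, some of the same neighbours. Neither the split nor the correlation is given for all measured genes, so whether they are particular to mitotic genes cannot be told. The part of position in the values of the mitotic genes was not tested.

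With the neighbours' median subtracted, 48 of the 55 genes were above 0 (background 50.1%), 7 below 0 (background 49.9%), and their median was 0.24. The 5 genes of chromosome 15 were then between 0.11 (PRC1) and 0.38 (KIF23). At least 1.5-fold higher were 8 (background 7.54%), and at least 1.5-fold lower was 1, MAD2L1 at -0.66 (background 6.95%). Values that stood well clear of their neighbours included KIF20A (0.83), KIF20B (0.81), NEK2 (0.76), CCNA2 (0.75) and HMMR (0.74). CDK1 came to 0.08, TTK to 0.21 and SPC25 to -0.23, since their neighbours lay at 0.40, 0.40 and -0.38. The 7 genes left below 0 were MAD2L1, FOXM1 (-0.44), ZWINT (-0.29), SPC25, KIF22 (-0.16), BIRC5 (-0.02) and TOP2A, which was within 0.01 of its neighbours.

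**Figure D3:**
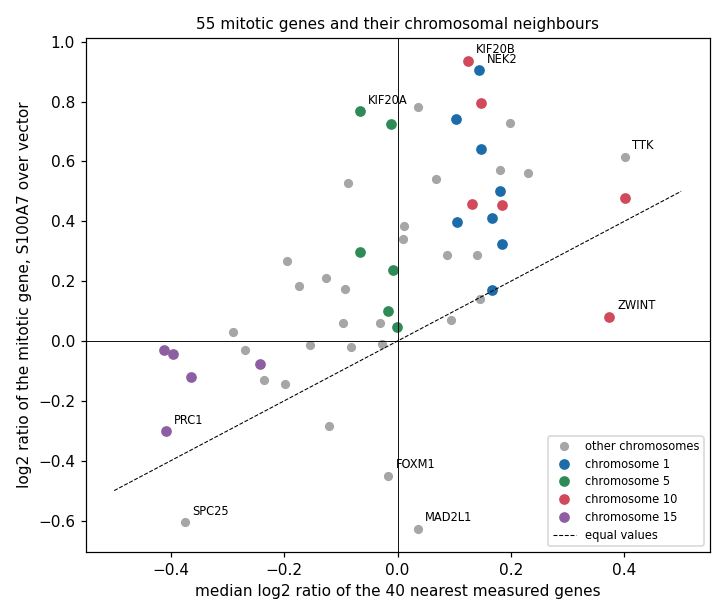
Log2 ratio of each of the 55 mitotic genes (vertical) against the median log2 ratio of up to 40 nearby measured genes (horizontal). Near a chromosome end fewer than 40 were used. Chromosomes 1, 5, 10 and 15 are coloured, and the dashed line marks equal values. Most points, 48 of 55, lie above the dashed line; the chromosome 15 genes lie at the lower left and those of chromosomes 1 and 10 at the right.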

How the data were processed

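Total RNA of MDA-MB 231 cells with S100A7 in pIRES2-EGFP or with the plasmid alone was labelled and hybridised to 1 Affymetrix array each. The authors deposited a linear intensity for each probe set, from MAS5 per the submitters' processing notes, whose version and scaling target were not given in the sources used here. With 2% trimmed from each end, the 54675 probe sets averaged 499.9 on either array, and the values were used as deposited. Value columns left unused numbered 0. The 62 control probe sets stayed out. The platform annotation paired 41097 probe sets with 1 gene, 1801 with several (1 of them listing CENPA with another gene, not used) and 11721 with none. Entrez identifiers gave current symbols for 41043 of them on assembly GRCh38.p14. Of the 55 genes' probe sets, 51 carry the suffix _s_at, _x_at or _a_at, which can match several transcripts, and 17 genes were read only by such probe sets.

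Floor, brightest probe set and log2 ratio were applied as the report states, in Python 3.11.15 with pandas 2.3.3 and numpy 2.4.6. The steps were tested on simulated arrays. With 1 array per group the number of arrays limits the precision, and nothing was tested; genes were counted at 1.5-fold and 2-fold. The genes, role groups and other lists were chosen with earlier results of these data known. All 55 genes are named. Intensities are given for those at least 1.5-fold apart, and in each role group for the 2 highest, the 2 lowest and the brightest, with others added after their values were seen. Of other lists the 2 highest, the 2 lowest and MKI67 are named. Other names (SPC24 and markers among them) stand where a comparison turns on them.

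The alternatives were median centring, quantile normalization, a lower floor (30th percentile), a higher one (70th) or none, a pseudocount of 32, the median over probe sets, no shared-suffix probe sets, and subtraction of chromosomal neighbours. The background of bright genes was chosen after seeing the data.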

Additional observations from a re-analysis of the deposited data

How the results depend on the processing

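Of 10 alternatives, 4 (a lower floor, a higher one, none, and the bright background) could not change a value of the 55 genes, since all of their brightest probe sets are well above the floor. Under the 6 others the median log2 ratio of the 55 genes stayed between 0.23 and 0.30. Of 12 genes at least 1.5-fold apart, 7 remained so under each that measured them (CCNA2, NEK2, KIF11, KIF20A, KIF20B, NUF2 and MAD2L1), and 0 changed sign. TTK, NDC80, ASPM and SPC25 came under 1.5-fold after subtraction of chromosomal neighbours, and HMMR with the median over probe sets (0.47). That median also gave 0.34 for spindle assembly and chromosome structure. Without shared-suffix probe sets 38 genes were left, with a median of 0.30. Fewer genes were measured in this setting, where the background above 0 was 47.5%. Kinetochore and checkpoint genes had 7 of 12 above 0. Passenger and cytokinesis genes had 2 of 3 above 0 and a median of 0.46, and spindle assembly genes had a median of 0.49. Minus neighbours, 1 gene was at least 1.5-fold lower, the kinesin median was 0.33 and the passenger and cytokinesis median 0.14. Centring, quantile normalization and the pseudocount moved no gene value by over the spread between probe sets; the 14 of 313 values that moved by more came from the choice of probe set and from the neighbours. The background at least 1.5-fold higher was 17.3% and lower 20.6% with no floor. No paired analysis was possible because each group has 1 array. Neither cultures nor stable lines were repeated, and for 29 of the 55 genes a single measured probe set carries the value.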
